A study of Mus musculus with 27 samples.

Results

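Lamin B1 knockdown (KD) cells were compared with control cells after 24 h of TGF-β, in 4 RNA libraries, 2 of each kind, out of the 27 samples of the series. The libraries were chosen by their labels alone, and they belong to a table of 12 libraries that also holds control and KD cells left untreated or treated for 8 h. All were made from NMuMG cells, an untransformed epithelial line of the mouse mammary gland grown in serum and insulin. Control cells carried an irrelevant shRNA and KD cells a shRNA against lamin B1. The methods describe lentiviral infection and puromycin selection for these lines, and at 24 h both had received TGF-β, at 1 to 5 ng/ml according to the labels. The sources used here name 1 lamin B1 shRNA for the sequenced KD cells. Effects of lamin B1 loss and effects of that hairpin on other transcripts therefore cannot be told apart in these libraries. The paper reports that human GFP-lamin B1 brought back migration of KD cells, but the series holds no RNA library of cells with that construct. The study describes a KD that was deliberately kept partial, and its methods call the 2 libraries of a group biological replicates.

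Lamin B1 is a farnesylated intermediate filament protein of the nuclear lamina, the meshwork under the inner nuclear membrane, and part of it is found in the nuclear interior. TGF-β drives NMuMG cells through an epithelial to mesenchymal transition (EMT), in which E-cadherin and other junction genes are lost, matrix and cytoskeletal genes are induced, and the cells leave the cell cycle. SMAD proteins carry the signal from the TGF-β receptors to the nucleus, and repressors of the SNAIL and ZEB families act on epithelial promoters through E-box sequences.

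Expression was given for 24247 genes as FPKM, the fragments counted per kilobase of a transcript after scaling to the depth of the library. Genes reaching 1 FPKM in 2 or more of the 12 libraries, 11450 in all, were tested with limma on log2(FPKM + 1). Every difference below is KD minus control on that scale with its standard error (SE), 2 libraries a group, and every adjusted p is a Benjamini-Hochberg value over all genes tested. Read totals are unknown. By the steps between low values, the depth of the 24 h libraries was 86.4% to 108% of that of the first library of the table. The 24 h libraries summed to 699130 to 910348 FPKM, of which small RNA genes took 26.7% to 43.0%. The KD replicates of 24 h correlated with r = 0.960 across genes, the lowest of the 6 groups, whose other values were 0.971 to 0.984.

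Lmnb1 itself was measured at 18.4 and 17.9 FPKM in control and 4.37 and 7.52 FPKM in KD cells. Both KD values lay under both control values, and the difference was -1.50 ± 0.18, adjusted p = 0.000901. The KD replicates were further apart than the control replicates. In untreated cells the values were 29.2 and 36.5 FPKM in control and 9.01 and 9.27 FPKM in KD cells, and at 8 h 32.8 and 32.1 FPKM in control and 7.79 and 8.14 FPKM in KD cells, with the KD libraries lower at every time, as labelled. The KD difference of Lmnb1 at 24 h was not called different from that of untreated cells (0.23 ± 0.26, adjusted p = 0.619), but it was without KD replicate 1 (0.56, adjusted p = 0.0223), and it was -0.10 without KD replicate 2. Fitted on the 4 libraries of 24 h alone, Lmnb1 kept its value of -1.50 and missed the threshold with an adjusted p of 0.0539.

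Over all genes tested 28.3% were called at 24 h. In every called gene the KD and control libraries did not overlap, which also held for 63.8% of all genes tested. Of the 20 lamina and nuclear envelope genes tested, 3 fell and 2 rose, 25% in all and close to that background. Lmnb2, the other B-type lamin, was at 15.4 and 15.2 FPKM in control and 10.2 and 10.8 FPKM in KD cells, without overlap of the groups, and fell (-0.50 ± 0.06, adjusted p = 0.000758). Tmpo, which encodes the lamina-associated LAP2 proteins, fell by less (-0.32 ± 0.06, adjusted p = 0.00782). Sun2, an inner nuclear membrane protein that links the lamina to the cytoskeleton, rose by 0.26 (adjusted p = 0.0187), and the torsin ATPase gene Tor1a by 0.18 (adjusted p = 0.0399). Tor1a was not called without control replicate 1 (0.15), control replicate 2 (0.15) or KD replicate 2 (0.135). Without control replicate 2 the adjusted p of Tmpo was 0.0553 and that of Sun2 0.122. Without control replicate 1 or KD replicate 2 that of Sun2 was 0.0507 and 0.0633. The A-type lamin gene Lmna, at a mean of 312 FPKM in control and 317 FPKM in KD cells, was not called (0.02 ± 0.06, adjusted p = 0.805), and its sign changed with the scaling.

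The libraries carried the keratins of luminal mammary epithelium, with Krt8 at 3063 and 3200.5 FPKM in control and 3345 and 3561 FPKM in KD cells and Krt18 at 2659.8 and 2765 FPKM in control and 2714 and 3324 FPKM in KD cells. Of 13 luminal markers, 6 passed the filter on low values, of which 2 rose and 1, Foxa1, a factor of luminal cells, fell (-0.49 ± 0.07, adjusted p = 0.00173). The surface marker Epcam was at 0.671 and 0.573 FPKM in control and 1.21 and 1.45 FPKM in KD cells. Summed over the luminal list, the libraries held 5774 to 7003 FPKM, lowest in a control and highest in a KD library. Nearly all of that sum was Krt8 and Krt18, and 7 of the 13 markers were under 1 FPKM in the 4 libraries. Markers of other cell types were sparse, with sums of 5.16 to 8.86 FPKM for the basal list, 6.34 to 9.03 FPKM for fibroblasts, 0.431 to 0.616 FPKM for endothelium, 2.12 to 2.81 FPKM for leukocytes and 4.59 to 7.01 FPKM for adipocytes. Of the 7 endothelial markers none was tested, and all were under 1 FPKM in the 4 libraries. Of the lists of other cell types, 3 basal genes (Krt14, Acta2, Mylk) and 1 adipocyte gene (Pparg) rose in KD cells, all from means under 5 FPKM in control cells. Krt14 and Acta2 were not called without control replicate 1 (0.0926 and 0.0919) or 2 (0.062 and 0.0821), nor Pparg without control replicate 2 (0.0674). The part of these cell types in the results was not tested. A change in the number of cells of a kind and a change in RNA per cell cannot be told apart in such bulk libraries.

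At 24 h, 3241 genes were called, 28.3% of those tested, of which 1924 (16.8% of those tested) were higher and 1317 (11.5%) lower in KD cells. Most differences were small, with a median size of 0.311, and 43 genes rose and 18 fell at least 2-fold. Leaving out control replicate 1 or 2 changed the count to 1199 (783 higher, 416 lower) and 1425 (912 higher, 513 lower), while leaving out KD replicate 1 or 2 gave 4476 and 3017. In a fit of the 4 libraries of 24 h alone 710 genes were called, and 698 of these were also called with all libraries, each in the same direction. Quantile normalization gave 3224 calls, 1613 of them higher in KD cells, so that calls were evenly split, against 59.4% higher without it. Of the 3241 genes, 2246 were also called at 8 h, 69.3% of the 24 h calls and 54.7% of the 4104 calls of 8 h, and 2240 of them had the same sign. Overlap with the 2254 calls of untreated cells was 1122 genes, 34.6% of the 24 h calls and 49.8% of the untreated calls, with 1071 of the same sign. Of all 11450 genes tested, 4104 were called at 8 h and 2254 in untreated cells, and the overlaps were not tested. Of the 3241 genes, 858 were called at 24 h alone, which is not a test of a difference between times. By such tests the KD difference at 24 h differed from that of untreated cells in 540 genes and from that of 8 h in 35.

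**Figure D1:**
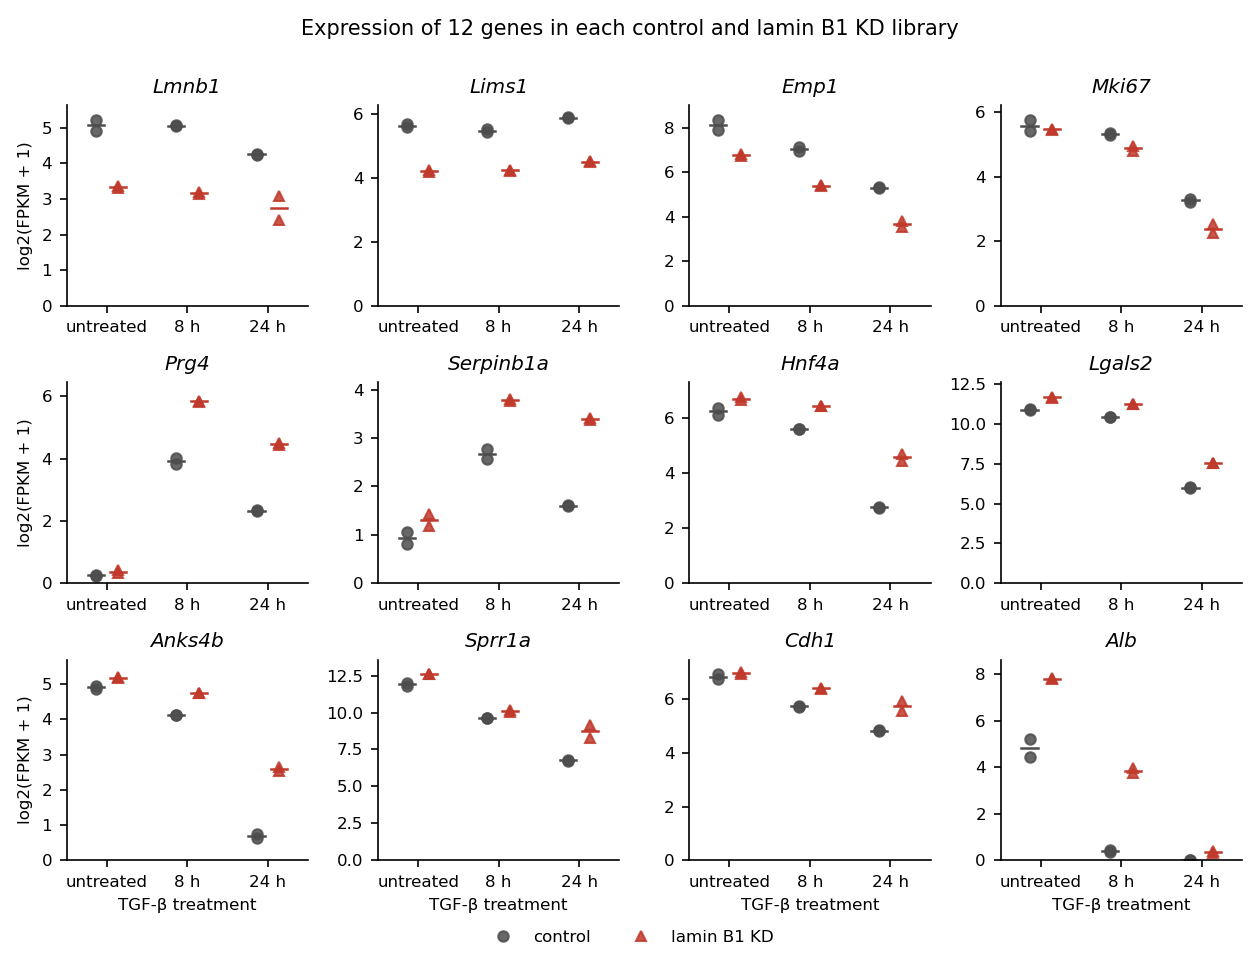
Expression of 12 genes as log2(FPKM + 1) (vertical axes from 0) in each control (grey circles) and lamin B1 KD (red triangles) library, by TGF-β treatment (horizontal axes), with short lines at the mean of the 2 replicates. Lmnb1, Lims1 and Emp1 lay lower in KD cells at every time, Prg4 rose with TGF-β and was higher in KD cells at 8 and 24 h, and Hnf4a, Lgals2, Anks4b, Sprr1a and Cdh1 fell with TGF-β and were higher in KD than in control cells at 24 h.

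The largest rise by the naming rule was that of Prg4, which encodes the secreted lubricant lubricin (chr1:152296542-152313295, minus strand of mm9). It was at 3.97 and 4.06 FPKM in control and 21.6 and 20.8 FPKM in KD cells, a 5.29-fold ratio of means and a difference of 2.15 ± 0.07, adjusted p = 1.83e-06. Both KD libraries were above both controls, and replicates differed little. In untreated cells Prg4 was nearly silent, at 0.175 and 0.206 FPKM in control and 0.245 and 0.339 FPKM in KD cells, and it rose with TGF-β in parental cells as well.

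Several of the other large rises were genes that TGF-β lowers in parental cells. Hnf4a, a nuclear receptor that maintains liver and gut epithelium (chr2:163332544-163398646, plus strand), stood at 5.65 and 5.79 FPKM in control and 20.7 and 24.4 FPKM in KD cells (1.81 ± 0.09, adjusted p = 1.76e-05). Untreated cells had 80.1 and 67.7 FPKM in control and 105 and 98.1 FPKM in KD cells, so both lines lost most of the transcript and KD cells kept more of it. Lgals2, a galectin (chr15:78681292-78685959, minus strand), had 63.6 and 60.9 FPKM in control and 189.7 and 189 FPKM in KD cells (1.59 ± 0.05, adjusted p = 9.32e-07), after 1872 and 1939 FPKM in control and 3375 and 3137 FPKM in KD cells without TGF-β. Anks4b, a scaffold of the brush border (chr7:127317372-127327230, plus strand), had 0.662 and 0.553 FPKM in control and 4.79 and 5.31 FPKM in KD cells (1.91 ± 0.06, adjusted p = 9.32e-07).

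Sprr1a, a precursor of the cornified envelope (chr3:92287877-92289816, minus strand), was at 103 and 111 FPKM in control and 312 and 571 FPKM in KD cells (1.97 ± 0.22, adjusted p = 0.000644). Its KD replicates differed more than those of the genes above, yet both exceeded both controls. Aldh1a1, a retinal dehydrogenase, had 4.99 and 4.58 FPKM in control and 25.7 and 11.9 FPKM in KD cells (1.68 ± 0.26, adjusted p = 0.0025), again with unequal KD replicates. In the limma fit of the 4 libraries of 24 h alone it was not called (adjusted p = 0.0823). S100g, the calcium-binding calbindin D9k, had 2.41 and 1.54 FPKM in control and 8.13 and 6.19 FPKM in KD cells (1.46 ± 0.16, adjusted p = 0.000644). Ephx1, the microsomal epoxide hydrolase, had 19.8 and 18.7 FPKM in control and 47.6 and 58.1 FPKM in KD cells (1.40 ± 0.16, adjusted p = 0.00080).

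Other large rises differed in their course in parental cells. Serpinb1a, an inhibitor of serine proteases, was at 2.02 and 2.05 FPKM in control and 9.35 and 9.6 FPKM in KD cells (1.79 ± 0.11, adjusted p = 3.95e-05), and Csdc2, a cold shock domain protein, at 2.86 and 3.21 FPKM in control and 8.2 and 9.49 FPKM in KD cells (1.29 ± 0.09, adjusted p = 8.22e-05). TGF-β raised both in parental cells. Sod3, the extracellular superoxide dismutase, was at 10.5 and 8.74 FPKM in control and 25.3 and 32.3 FPKM in KD cells (1.48 ± 0.12, adjusted p = 0.000143). Srpx2, a secreted sushi repeat protein, was listed at 0 in all 4 untreated libraries and reached 1.47 and 1.52 FPKM in control and 6.8 and 5.25 FPKM in KD cells at 24 h (1.48 ± 0.09, adjusted p = 5.13e-05). Spon2, a secreted matrix protein, rose by 1.59, R3hdml by 1.43 and Dhrs3, a retinal reductase, by 1.29. The 15 largest rises ran from 2.15 down to 1.29, and each remained called when any 1 library of 24 h was left out.

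The largest falls, those of Prl2c3, Prl2c2 and Prl2c5, belong to the proliferin family, secreted hormones with near-identical copies among which reads may have been split. Prl2c3 had 167 and 143 FPKM in control and 66.6 and 5.64 FPKM in KD cells (-2.88 ± 0.83, adjusted p = 0.0328). KD replicate 2 was far under KD replicate 1 in all 3 genes, and without KD replicate 2 the differences were -1.20, -1.16 and -1.03 for Prl2c3, Prl2c2 and Prl2c5. Without control replicate 1 the adjusted p was 0.139, 0.138 and 0.107 in that order. Without control replicate 2 it was 0.11, 0.109 and 0.081.

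Beside Lmnb1, a group of the largest falls was about as low at every time. Lims1, which encodes the integrin adaptor PINCH1, was at 57.8 and 58.6 FPKM in control and 22.1 and 21.6 FPKM in KD cells at 24 h (-1.37 ± 0.05, adjusted p = 1.99e-06). Its difference was -1.44 in untreated cells and -1.24 at 8 h. Emp1, a tetraspan membrane protein, had 39.1 and 37.7 FPKM in control and 10.6 and 12.9 FPKM in KD cells (-1.63 ± 0.14, adjusted p = 0.000181), against -1.32 and -1.65 at the earlier times. Tax1bp3, a PDZ domain protein, fell by 1.26, Bcas2, a spliceosome component, by 1.17 and Mesdc1 by 1.11 on the log2 scale. Cnot6, a deadenylase, fell by 1.07 and Plekha3, a lipid-binding protein of the Golgi, by 1.03 on that scale. These 7 genes, picked for their fall at 24 h, were also called lower in untreated cells and at 8 h. None of them was called in the tests of the difference between times. The other large falls were Smoc2, a secreted matricellular protein (-1.09 ± 0.19, adjusted p = 0.00488), Kif20b, a kinesin of cytokinesis (-1.01 ± 0.21, adjusted p = 0.010), and Hells, a chromatin remodeller (-0.98 ± 0.16, adjusted p = 0.00371). Without control replicate 1 or 2 the adjusted p of Kif20b was 0.0577 and 0.0558.

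**Figure D2:**
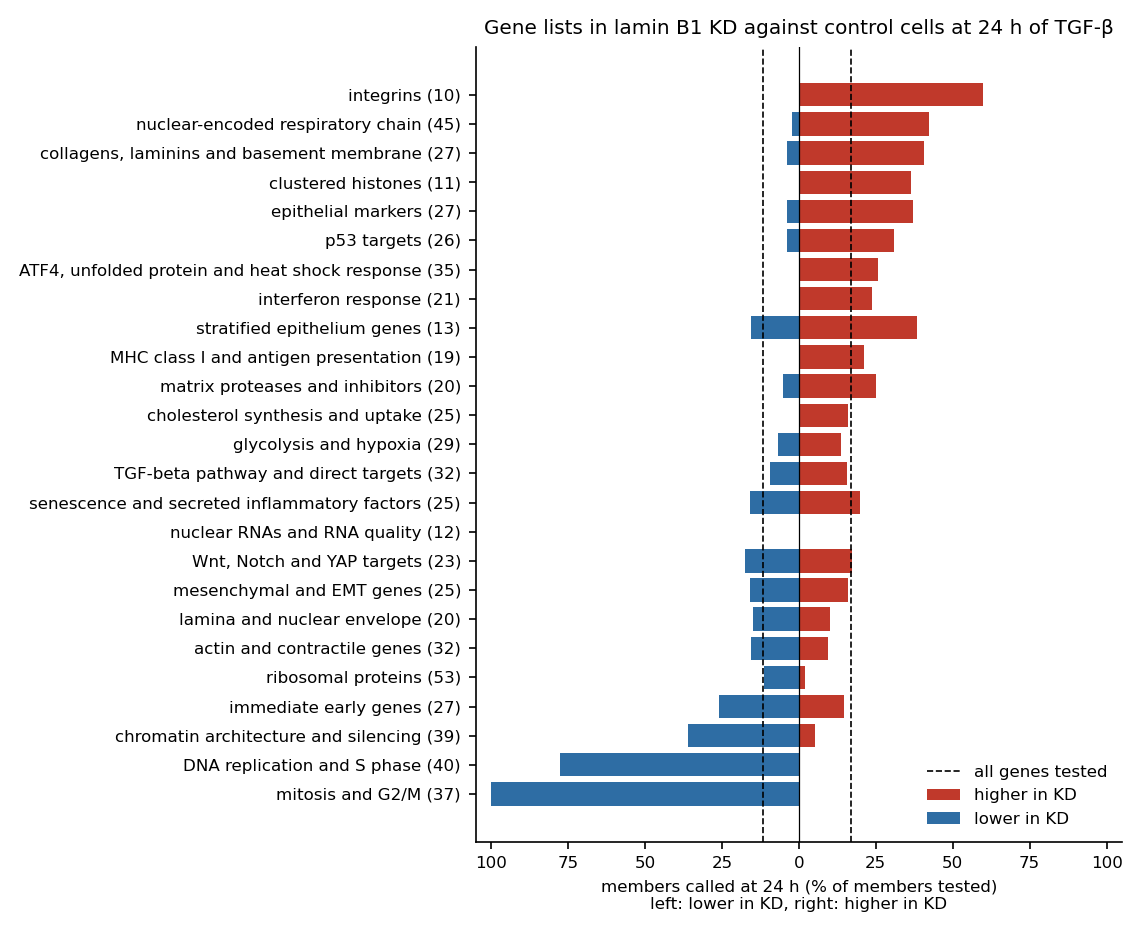
Share of the tested members of each gene list (number tested in brackets, horizontal axis in % of members) called higher (red, to the right) or lower (blue, to the left) in KD than in control cells at 24 h; dashed lines mark 16.8% higher and 11.5% lower over all genes tested. The mitosis and replication lists lay wholly on the lower side. The integrin list lay wholly on the higher side, as did the ATF4, interferon, MHC class I, cholesterol and clustered histone lists.

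Epithelial genes leaned upward in KD cells. Of 42 epithelial markers 27 passed the filter, 10 rose and 1 fell, 40.7% beside the 28.3% called over all genes tested. Their median difference was 0.147 beside 0.0223 over all genes tested. The count of 10 became 5 without control replicate 1. Cdh1, which encodes E-cadherin (chr8:109127251-109194146, plus strand), had 26.8 and 27.6 FPKM in control and 46.6 and 60.1 FPKM in KD cells (0.94 ± 0.10, adjusted p = 0.000656). Both KD libraries exceeded both controls. Without TGF-β the values were 121 and 106 FPKM in control and 127 and 121 FPKM in KD cells, with overlapping groups and no call (0.13 ± 0.10, adjusted p = 0.437), and the KD difference was higher at 24 h than in untreated cells (0.81 ± 0.15, adjusted p = 0.0246). That test missed the threshold without control replicate 1 (adjusted p = 0.107) or 2 (0.0838). Dsp, the desmosomal plaque protein desmoplakin, had 29.5 and 32.7 FPKM in control and 42.1 and 51.7 FPKM in KD cells (0.57 ± 0.09, adjusted p = 0.00329), and the epithelial transcription factor Elf3 8.32 and 7.64 FPKM in control and 12.2 and 11.2 FPKM in KD cells (0.50 ± 0.09, adjusted p = 0.00483). Dsg2, a desmosomal cadherin, rose by 0.49 (adjusted p = 0.00556), and its adjusted p was 0.0522 without control replicate 1. Pkp1, a desmosomal armadillo protein, fell (-0.24 ± 0.06, adjusted p = 0.0231), but not without control replicate 1 (0.102), control replicate 2 (0.111) or KD replicate 2 (0.0819). Krt19 had 18 and 19.6 FPKM in control and 22.1 and 52.6 FPKM in KD cells and was not called (0.83 ± 0.31, adjusted p = 0.0735), with KD replicate 2 far above the other 3 libraries. Without KD replicate 1 it was called, at 0.000136.

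The E-box CAGGTG, searched on both strands in windows from 250 bases before to 50 bases after gene starts (RefSeq, GRCm38.p6), occurred in 77.8% of the 18 epithelial list genes with such a window. Over all 27025 genes of the window table the share was 22.6%, and over the 8666 tested genes with a window it was 19.9%. It was 24.9% over genes higher and 16.4% over genes lower in KD cells at 24 h. The windows of Dsp (chr13:38151044-38151343 on the plus strand) and Elf3 (chr1:135258423-135258722 on the minus strand) are shown because both genes rose and each window holds 1 copy, set in capitals. Cdh1 and Dsg2 have no entry in the window table.
Dsp: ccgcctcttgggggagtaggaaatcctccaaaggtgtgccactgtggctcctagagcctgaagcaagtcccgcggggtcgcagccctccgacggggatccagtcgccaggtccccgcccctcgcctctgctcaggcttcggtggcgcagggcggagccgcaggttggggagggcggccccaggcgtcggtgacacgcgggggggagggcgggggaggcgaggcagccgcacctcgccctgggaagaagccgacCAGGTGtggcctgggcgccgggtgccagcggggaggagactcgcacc
Elf3: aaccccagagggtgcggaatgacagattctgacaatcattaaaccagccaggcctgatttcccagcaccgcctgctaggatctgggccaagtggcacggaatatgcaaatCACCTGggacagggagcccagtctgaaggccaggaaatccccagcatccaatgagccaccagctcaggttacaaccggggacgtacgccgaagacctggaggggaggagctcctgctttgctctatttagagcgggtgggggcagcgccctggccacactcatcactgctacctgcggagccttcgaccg
The Elf3 copy reads on the opposite strand. A match shows the letters in the window and nothing of the factors bound there.

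Of 36 mesenchymal and EMT genes 25 passed the filter, 4 rose and 4 fell, 32.0% beside the 28.3% called over all genes tested. Fn1, which encodes fibronectin, was at 469 and 541 FPKM in control and 415 and 942 FPKM in KD cells, with both control values between the KD values. Its difference was 0.31 ± 0.30, adjusted p = 0.462. Without KD replicate 1 it was 0.90 (adjusted p = 0.000723), and without KD replicate 2 it was -0.28, so the direction rested on 1 library. Vim, which encodes vimentin, had 1505 and 1394 FPKM in control and 1365 and 1384 FPKM in KD cells (-0.08 ± 0.08, adjusted p = 0.521), and Cdh2, N-cadherin, 73.4 and 73 FPKM in control and 71.6 and 74.1 FPKM in KD cells (-0.01 ± 0.04, adjusted p = 0.924). Neither was called. Twist1 reached 1 FPKM in too few libraries to be tested, and was listed at 0.888 and 0.97 FPKM in control and 0.542 and 0.987 FPKM in KD cells. The EMT factor Twist2 had 1.86 and 1.66 FPKM in control and 2.34 and 3.28 FPKM in KD cells (0.45 ± 0.12, adjusted p = 0.0207), without overlap. Its adjusted p was 0.0691 without control replicate 1, 0.115 without control replicate 2 and 0.0693 without KD replicate 2.

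Among the others, Sparc, a matricellular protein, rose (0.40 ± 0.08, adjusted p = 0.00596), and the receptor kinase Axl fell (-0.33 ± 0.07, adjusted p = 0.0081), the latter with an adjusted p of 0.0503 and 0.0529 without control replicate 1 and 2. The repressor Zeb2 had 6.41 and 6.5 FPKM in control and 5.6 and 4.39 FPKM in KD cells (-0.32 ± 0.09, adjusted p = 0.0294), and it was not called without control replicate 1 (0.118), control replicate 2 (0.124) or KD replicate 2 (0.0916). The E-box factor Tcf4 fell (-0.28 ± 0.07, adjusted p = 0.0176), at 0.0803 and 0.0958 without control replicate 1 and 2. The counts for the list were 1 and 1 without control replicate 1, 1 and 0 without control replicate 2, 8 and 5 without KD replicate 1, and 3 and 7 without KD replicate 2, rises before falls. With quantile normalization 3 rose and 6 fell.

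In the TGF-β pathway, 5 of 32 tested genes rose and 3 fell, 25% beside the 28.3% called over all genes tested. Tgfbr2, the type II receptor that binds the ligand, was at 31.7 and 32.7 FPKM in control and 46.5 and 49.4 FPKM in KD cells (0.56 ± 0.05, adjusted p = 0.000145), and it was higher in KD cells at every time. The ligand genes Tgfb1 (0.33 ± 0.15), Tgfb2 (0.34 ± 0.18) and Tgfb3 (0.25 ± 0.13) were not called, but without KD replicate 1 the first 2 were, at 0.00508 and 0.0148. Of the signal transducers, Smad3 rose by 0.25 (adjusted p = 0.00819; 0.0665 without control replicate 1), while Smad2 and Smad4 were not called. Without KD replicate 2 Smad2 was, at 0.0375. Among targets, Id3, an inhibitor of helix-loop-helix factors, fell and was at 42.4 and 39.9 FPKM in control and 27 and 26.6 FPKM in KD cells (-0.60 ± 0.10, adjusted p = 0.00376). The oncogene Myc fell (-0.45 ± 0.09, adjusted p = 0.00649), with an adjusted p of 0.0534 without control replicate 1. The counts became 1 and 1, and 2 and 2, without control replicate 1 and 2, and 11 and 10 without KD replicate 1. With quantile normalization or median-of-ratios scaling they were 2 and 4.

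Cell cycle genes were lower in KD cells at 24 h. All 37 mitosis genes tested fell, with a median of -0.676, while 11.5% of all genes tested fell. Their summed level was 438.6 and 427 FPKM in control and 250.9 and 266.1 FPKM in KD cells. In the fit of the 4 libraries of 24 h alone, 16 of the 37 were called, all lower. Of the 37 genes, 26 to 37 stayed called whichever library of 24 h was left out. Mki67, the proliferation marker Ki-67, had 8.38 and 9.0 FPKM in control and 4.77 and 3.74 FPKM in KD cells (-0.89 ± 0.12, adjusted p = 0.00136), after 41.6 and 52.7 FPKM in control and 43 and 43.9 FPKM in KD cells without TGF-β. The condensin subunit Ncapg had 6.05 and 5.8 FPKM in control and 3.12 and 2.44 FPKM in KD cells (-0.88 ± 0.11, adjusted p = 0.000943). Smc4, a condensin ATPase, had 17.1 and 16.5 FPKM in control and 11.7 and 6.02 FPKM in KD cells (-0.91 ± 0.22, adjusted p = 0.0172), with KD replicate 2 under KD replicate 1, and was not called without control replicate 1 (adjusted p = 0.0903) or 2 (0.0738). Its partner Smc2 was at 9.87 and 9.64 FPKM in control and 6.77 and 3.54 FPKM in KD cells and with an adjusted p of 0.0817 and 0.0688 in those fits.

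More of the mitosis genes were called at the later time. In untreated cells 9 of the 37 were lower (median -0.15), at 8 h 22 were lower (median -0.322), and in 11 of them the KD difference at 24 h was below that of untreated cells by the test of the difference itself. Of 40 replication genes, 1 was lower and 2 were higher in untreated cells. At 8 h 38 were lower (median -0.644), and at 24 h 31 were lower (median -0.386). In 3 of the 40 the KD difference at 24 h was below that of untreated cells by the same test. Over all 11450 genes tested, that test called 227 with a lower difference at 24 h. Of the same 11450 genes, 1041 were lower and 1213 higher in untreated KD cells, and 1892 were lower and 2212 higher at 8 h. Genes that differed between 8 and 24 h were not counted for either list, and over all genes tested they numbered 35. Tk1, a thymidine kinase, had 24 and 23 FPKM in control and 10.5 and 13.8 FPKM in KD cells at 24 h (-0.90 ± 0.12, adjusted p = 0.00135), and Mcm5, a subunit of the replicative helicase, 15.7 and 15.3 FPKM in control and 8.48 and 9.29 FPKM in KD cells (-0.74 ± 0.08, adjusted p = 0.000499). Uhrf1, which recruits the maintenance DNA methyltransferase, fell too (-0.64 ± 0.11, adjusted p = 0.00444), as did the polymerase gene Pola1 (-0.65 ± 0.12, adjusted p = 0.00514). No replication gene rose at 24 h. In the fit of the 4 libraries of 24 h alone, 5 of the 40 were called, all lower. The count of 31 dropped to 14 and 16 without control replicate 1 and 2. Both lists also fall with TGF-β in parental cells, with medians of -1.36 for mitosis and -1.17 for replication at 24 h.

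The sequence TTTGAA, the letters of the cell cycle homology region (CHR) through which repressor complexes act on late cell cycle genes, was searched on both strands in the same windows. It occurred in 76.7% of the 30 mitosis genes with a window, in 16.1% of 31 replication genes, in 20.2% of all genes of the table and in 13.9% of tested genes. Over all genes lower in KD cells at 24 h the share was 19.6%, and over genes higher 13.5%. The windows of the named members Mki67 (chr7:135716330-135716629 on the minus strand), Ncapg (chr5:45669675-45669974 on the plus strand) and Smc2 (chr4:52438971-52439270 on the plus strand) are printed because these are members of the list that the naming rule picked for the size of their fall, with each copy in capitals. Smc4 has no entry. Cenpe, a centromere kinesin under the expression minimum of that rule, had the largest fall (-0.94 ± 0.19, adjusted p = 0.00826), at 0.0526 without control replicate 1.
Mki67: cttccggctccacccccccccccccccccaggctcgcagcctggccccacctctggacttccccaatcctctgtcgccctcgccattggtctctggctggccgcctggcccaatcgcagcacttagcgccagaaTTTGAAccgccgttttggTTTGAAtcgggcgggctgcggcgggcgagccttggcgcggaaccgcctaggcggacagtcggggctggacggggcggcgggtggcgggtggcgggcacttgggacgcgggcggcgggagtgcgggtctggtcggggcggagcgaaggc
Ncapg: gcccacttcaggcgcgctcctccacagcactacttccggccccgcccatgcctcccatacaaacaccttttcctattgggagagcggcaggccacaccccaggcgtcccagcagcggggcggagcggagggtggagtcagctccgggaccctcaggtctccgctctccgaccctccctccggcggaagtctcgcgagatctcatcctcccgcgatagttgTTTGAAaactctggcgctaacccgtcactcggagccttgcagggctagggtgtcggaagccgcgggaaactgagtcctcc
Smc2: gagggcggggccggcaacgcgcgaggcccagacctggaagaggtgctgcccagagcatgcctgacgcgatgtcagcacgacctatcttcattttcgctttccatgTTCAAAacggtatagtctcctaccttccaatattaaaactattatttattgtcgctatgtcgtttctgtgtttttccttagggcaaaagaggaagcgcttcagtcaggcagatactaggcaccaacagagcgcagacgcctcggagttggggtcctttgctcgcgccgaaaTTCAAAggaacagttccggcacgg
Mki67 holds 2 copies on its own strand, Ncapg 1, and Smc2 2 on the opposite strand. The letters alone do not show that a complex was bound or that the fall passed through them.

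**Figure D3:**
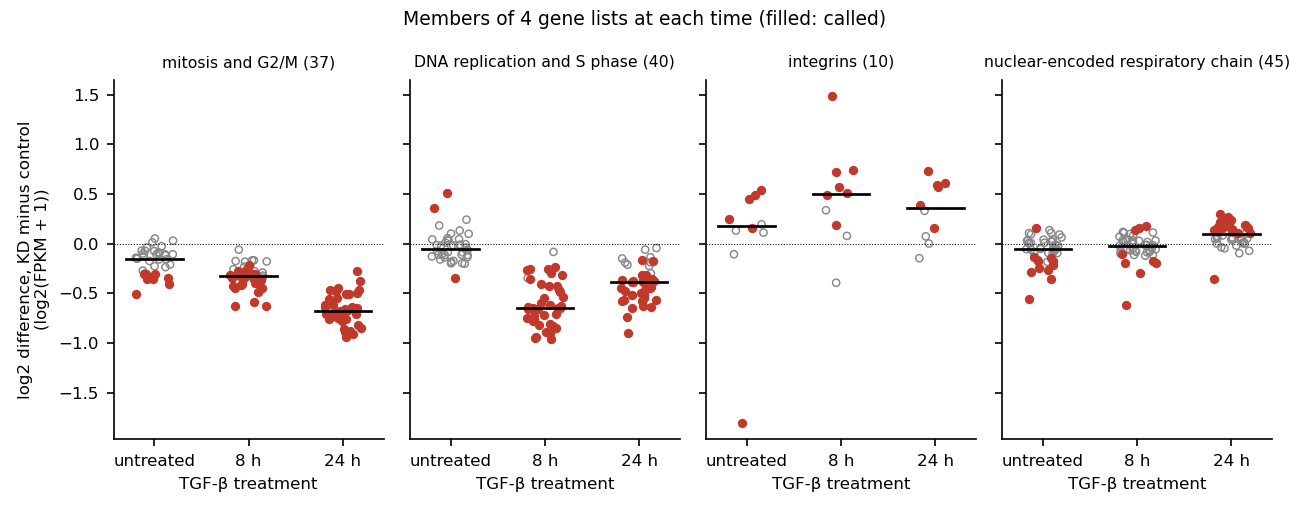
Log2 difference of KD minus control (vertical axis, log2(FPKM + 1)) for each tested member of 4 gene lists, untreated and at 8 and 24 h of TGF-β (horizontal axes); filled red points were called, open points were not, and black lines are medians. All 37 mitosis genes lie under 0 and are filled at 24 h, whereas the median of the replication genes was lowest at 8 h.

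Of 39 chromatin genes tested 14 fell and 2 rose (median -0.209), 41.0% beside the 28.3% called over all genes tested. Hmgb2, a chromatin protein of cycling cells, had 15.6 and 15.4 FPKM in control and 6.75 and 9.04 FPKM in KD cells (-0.90 ± 0.12, adjusted p = 0.00115), and Hmga1, another chromatin protein, 24.9 and 25.8 FPKM in control and 12.6 and 16.1 FPKM in KD cells (-0.79 ± 0.11, adjusted p = 0.00146). Cbx3, the heterochromatin protein HP1γ, fell (-0.49 ± 0.10, adjusted p = 0.00706). Hmga2, an architectural factor of EMT, fell as well (-0.47 ± 0.11, adjusted p = 0.0172), at 0.091, 0.0752 and 0.0714 without control replicate 1, control replicate 2 and KD replicate 2. The count of falls was 4 without either control replicate and 9 without KD replicate 2. Of the clustered histone genes 11 were tested, 4 rose and none fell, 36.4% beside the same 28.3%. Hist1h1c and Hist1h2bc, at 0.60 ± 0.15 and 0.65 ± 0.19, were not called without control replicate 1, control replicate 2 or KD replicate 1. Those fits gave adjusted p of 0.0833, 0.103 and 0.0603 for Hist1h1c, and of 0.086, 0.18 and 0.125 for Hist1h2bc.

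Of 10 integrin genes tested 6 rose and none fell, against 16.8% and 11.5% of all genes tested, with a median of 0.362. At 8 h 7 were higher and none lower (median 0.503), and in untreated cells 5 were higher and 1 lower (median 0.176). Itgb6, the epithelial subunit of a receptor that activates latent TGF-β, had 5.05 and 4.56 FPKM in control and 8.46 and 8.83 FPKM in KD cells (0.73 ± 0.06, adjusted p = 0.000126). Itgb4, the hemidesmosomal subunit, had 25.3 and 25.4 FPKM in control and 41 and 37.9 FPKM in KD cells (0.62 ± 0.05, adjusted p = 0.000125), and Itgb5 69.8 and 69.2 FPKM in control and 101 and 106 FPKM in KD cells (0.57 ± 0.06, adjusted p = 0.000495). Itgb3 rose by 0.39, and the common subunit Itgb1 by 0.16, which was not called without control replicate 1 (0.14), control replicate 2 (0.131) or KD replicate 1 (0.0968). In each of the 4 subunits Itgb3 to Itgb6 both KD values exceeded both control values.

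Of 27 collagen, laminin and basement membrane genes tested 11 rose and 1 fell (median 0.274). This was 44.4% beside the 28.3% called over all genes tested. Without control replicate 1 the rises numbered 7, and without control replicate 2 they numbered 8. Without KD replicate 2 there were 9 rises and 5 falls. Col4a2, a chain of basement membrane collagen, had 54.5 and 53.1 FPKM in control and 71.2 and 81.8 FPKM in KD cells (0.50 ± 0.07, adjusted p = 0.00148), and Lamc1, the common laminin γ chain, 21 and 22.1 FPKM in control and 31.6 and 42 FPKM in KD cells (0.73 ± 0.11, adjusted p = 0.0022). Col6a2, of collagen VI, had 6.05 and 5.75 FPKM in control and 9.49 and 14 FPKM in KD cells (0.87 ± 0.16, adjusted p = 0.00514). Its partner Col6a1 had 24.6 and 23.1 FPKM in control and 31.9 and 49.6 FPKM in KD cells (0.72 ± 0.18, adjusted p = 0.0185) and was not called without control replicate 1 (0.0749) or 2 (0.0955). Col18a1 fell (-0.23 ± 0.05, adjusted p = 0.0107), at 0.0648 and 0.0617 without control replicate 1 and 2.

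Of 20 proteases and inhibitors 5 rose and 1 fell. Adam8, a membrane metalloprotease, had 25.7 and 26.4 FPKM in control and 51.3 and 53.9 FPKM in KD cells (0.99 ± 0.06, adjusted p = 5.89e-05), and the inhibitor Timp2 266 and 265 FPKM in control and 386 and 359 FPKM in KD cells (0.49 ± 0.06, adjusted p = 0.00121). Mmp13, collagenase 3, fell (-0.72 ± 0.12, adjusted p = 0.00425). Among 32 actin and contractile genes 3 rose and 5 fell. The called shares of 30.0% of proteases and 25% of actin genes were near the 28.3% of all genes. Vcl, which encodes the focal adhesion protein vinculin, had 129 and 129 FPKM in control and 74.8 and 88.9 FPKM in KD cells (-0.65 ± 0.08, adjusted p = 0.000829), and it was lower at every time. The actin regulator Srf fell (-0.27 ± 0.06, adjusted p = 0.0107), at 0.0779 without control replicate 1. The counts for the actin list ran from 2 and 1 without control replicate 1 to 8 and 6 without KD replicate 1, and the protease rises were 3 without control replicate 2.

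Of 13 stratified epithelium genes tested 5 rose, led by Sprr1a, and 2 fell, 53.85% beside the 28.3% called over all genes tested. Sprr1b had 4.12 and 4.69 FPKM in control and 5.99 and 6.5 FPKM in KD cells (0.42 ± 0.07, adjusted p = 0.0046), and Ivl, the cornified envelope protein involucrin, 7.71 and 8.94 FPKM in control and 5.26 and 3.95 FPKM in KD cells (-0.74 ± 0.12, adjusted p = 0.00334). The rises were 2 without control replicate 1 or 2. Sprr genes are close copies, so reads may have been split among them. Of 27 immediate early genes 4 rose and 7 fell, 40.7% beside the same 28.3%. Dusp5, an ERK phosphatase, fell (-0.49 ± 0.09, adjusted p = 0.0051), whereas Zfp36, which destabilizes AU-rich transcripts, rose (0.51 ± 0.10, adjusted p = 0.0063), at 0.0519 without control replicate 2. The rises numbered 2 without control replicate 2, and the falls 4 without control replicate 1. Among 23 Wnt, Notch and YAP genes 4 rose and 4 fell, 34.8% beside 28.3%. The YAP partner Tead1 (-0.31 ± 0.05, adjusted p = 0.00256) and the LIM protein Ajuba (-0.36 ± 0.04, adjusted p = 0.000783) fell, and the YAP target Ankrd1 rose (0.34 ± 0.07, adjusted p = 0.00972), at 0.0599 and 0.0551 without control replicate 1 and 2. Falls were 2 in those fits.

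Of 35 genes of the ATF4, unfolded protein and heat shock responses 9 rose and none fell, 25.7% beside the 28.3% called over all genes, and 4 rose without either control replicate. Herpud1, of endoplasmic reticulum associated degradation, had 29.6 and 27.7 FPKM in control and 61.7 and 59.8 FPKM in KD cells (1.06 ± 0.09, adjusted p = 0.000188), and the transcription factor Xbp1 63.7 and 63.2 FPKM in control and 82.6 and 80.3 FPKM in KD cells (0.35 ± 0.05, adjusted p = 0.00191). Asns, asparagine synthetase, rose as well (0.43 ± 0.07, adjusted p = 0.00333). With quantile normalization 4 rose and 2 fell. Of 26 p53 targets 8 rose and 1 fell, 34.6% beside the same 28.3%. In untreated cells 13 of the 26 were higher and none lower, and at 8 h 11 were higher and 2 lower. Over all 11450 genes tested, 1213 were higher and 1041 lower in untreated KD cells, and 2212 were higher and 1892 lower at 8 h. The death receptor Fas had 6.46 and 6.09 FPKM in control and 13.4 and 12.3 FPKM in KD cells (0.93 ± 0.11, adjusted p = 0.000758) and was higher at every time, and Dcxr, a carbonyl reductase, rose by 0.41 (adjusted p = 0.00457). Cdkn1a, the p21 inhibitor, had 99.8 and 98.8 FPKM in control and 125 and 100.3 FPKM in KD cells and was not called (0.17 ± 0.08, adjusted p = 0.155), except without KD replicate 2 (0.00164). The p53 rises numbered 4 and 3 without control replicate 1 and 2, and 13 without KD replicate 2.

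In the senescence and secreted factor list 5 of 25 genes rose and 4 fell, 36.0% beside the 28.3% called over all genes tested. Il11, a cytokine that TGF-β induces, had 189 and 199 FPKM in control and 137 and 121 FPKM in KD cells (-0.59 ± 0.09, adjusted p = 0.00295), and Lif, of the same cytokine family, 30.5 and 29.8 FPKM in control and 21.9 and 21.3 FPKM in KD cells (-0.46 ± 0.07, adjusted p = 0.00196). Il33, an alarmin, rose (0.71 ± 0.14, adjusted p = 0.00679). Cxcl5, a neutrophil chemokine, fell (-0.39 ± 0.12, adjusted p = 0.0384), at 0.217, 0.0606 and 0.164 without control replicate 1, control replicate 2 and KD replicate 2. The counts were 1 and 2, and 3 and 2, without control replicate 1 and 2. Of 21 interferon genes 5 rose and none fell, 23.8% beside the 28.3% called over all genes. Lgals3bp, a secreted glycoprotein, had 33.1 and 32.9 FPKM in control and 67.2 and 79.7 FPKM in KD cells (1.13 ± 0.07, adjusted p = 5.42e-05), and Ifi27 9.81 and 10.2 FPKM in control and 21.2 and 20.1 FPKM in KD cells (0.98 ± 0.14, adjusted p = 0.00177). Both were also higher at 8 h and in untreated cells. Without KD replicate 2 the interferon list had 6 rises and 4 falls. The MHC class I list had 4 rises in 19 genes, beside 16.8% higher over all genes, H2-D1 among them (0.45 ± 0.07, adjusted p = 0.0037), and 1 and 2 rises without control replicate 1 and 2. MHC genes are a family of close copies.

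Of 45 nuclear-encoded respiratory chain genes 19 rose and 1 fell, by at most 0.30 upward, and the count depended on the scaling and on single libraries. It was 6 with quantile normalization, 8 with median-of-ratios scaling, 11 with small RNA genes left out, 3 without control replicate 1 or 2, and 8 without KD replicate 2. Ndufb3, a subunit of complex I, had 97.4 and 103 FPKM in control and 123 and 123 FPKM in KD cells (0.30 ± 0.04, adjusted p = 0.00124), and Cyc1, cytochrome c1 of complex III, 143 and 149 FPKM in control and 109.8 and 117 FPKM in KD cells (-0.36 ± 0.04, adjusted p = 0.00086). Cyc1 was lower at every time. Of 53 ribosomal protein genes 6 fell and 1 rose, 13.2% in all, and none was called without control replicate 1 or 2. Of 25 cholesterol genes 4 rose (16.0%), Sc5d, a late desaturase, among them (0.30 ± 0.04, adjusted p = 0.00172). Without KD replicate 1 the cholesterol rises numbered 21, and 1 without any of the other libraries in turn. Of 29 glycolysis and hypoxia genes 4 rose and 2 fell, 20.7% in all. Over all genes tested 28.3% were called, 16.8% higher and 11.5% lower, so the ribosomal, cholesterol and glycolysis lists held no more calls than the background. Pfkfb4, which sets fructose 2,6-bisphosphate, had 17.8 and 17.9 FPKM in control and 14.5 and 14 FPKM in KD cells (-0.31 ± 0.05, adjusted p = 0.00241), and the rises were 1 without either control replicate. No gene of the 12 nuclear RNAs and RNA quality markers tested was called, with 4 libraries summing to 689.4 to 867.2 FPKM over them, and mitochondrially encoded genes are not in the table.

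The KD difference was then read over the genes that respond to TGF-β in parental cells, whose 6 libraries are in a separate table. Of 577 genes raised at least 2-fold at 24 h and tested here, 131 (22.7%) were higher and 78 (13.5%) lower in KD cells. Of 703 lowered genes, 174 (24.8%) were higher and 200 (28.5%) lower. Over the 10843 genes in both tests the shares were 17.0% and 11.8%. The lowered list held 60 genes of the replication and mitosis lists, and without them 27.1% of 643 genes were higher and 22.4% lower. At 8 h, the lowered genes of parental cells held 63 higher and 23 lower in KD cells at 24 h, of 244. Across 10805 genes outside the small RNAs, which are not independent replicates, the KD difference and the parental change had r = 0.041 and a Spearman rho of 0.082.

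By the naming rule the raised members picked were Prg4, Serpinb1a, Csdc2 and AA467197, each higher in KD cells than in control cells. AA467197 had 2.43 and 2.93 FPKM in control and 6.19 and 8.22 FPKM in KD cells (1.15 ± 0.13, adjusted p = 0.000721) and was under 1 FPKM in every untreated library. The lowered members picked by the rule were Prl2c3, Prl2c2 and Prl2c5, lower in KD cells, and Sprr1a, higher in KD cells. Their order rested on KD replicate 2, without which the differences were -1.20, -1.16, -1.03 and 1.53, and the Prl2c genes were not called without control replicate 1 or 2. In parental cells Prg4 rose by 2.03 and Serpinb1a by 1.69, and Sprr1a fell by 1.77 on the log2 scale.

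Testing the KD difference at 24 h against that of untreated cells gave 540 genes (4.72% of those tested), 313 with a higher and 227 with a lower difference at 24 h. The share of calls that were higher was 58.0%, and it was 48.0% with quantile normalization, 41.8% with median-of-ratios scaling and 36.2% of 592 calls with small RNA genes left out and the libraries rescaled. Against 8 h, 35 genes (0.306%) differed, 9 higher and 26 lower. The count against untreated cells was 90 and 119 without control replicate 1 and 2, and 2696 without KD replicate 1. The count against 8 h was 19 and 20 without control replicate 1 and 2, and 2138 without KD replicate 1.

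The lowest differences against untreated cells concerned genes that were higher in untreated KD than control cells and under 1 FPKM at 24 h. Alb, serum albumin, was at 36 and 20.9 FPKM in control and 218 and 226 FPKM in KD cells without TGF-β, and at 24 h it was listed at 0 in both control libraries and at 0.337 and 0.255 FPKM in KD libraries. Its difference was -2.60 ± 0.28, adjusted p = 0.00315 against untreated cells and -3.07 ± 0.28, adjusted p = 0.00186 against 8 h. With an added constant of 0.1 FPKM the first was -1.03 and was not called (adjusted p = 0.106). Sprr2a1, a cornified envelope precursor, had 4.06 and 3.09 FPKM in control and 62.6 and 55.7 FPKM in KD cells untreated and 0.22 and 0.228 FPKM in control and 0.885 and 0.664 FPKM in KD cells at 24 h (-3.19 ± 0.17, adjusted p = 6.7e-05). Apoa1, apolipoprotein A-I, had 0.991 and 0.879 FPKM in control and 10.2 and 10.8 FPKM in KD cells untreated and was listed at 0 in 3 of the 4 libraries of 24 h (-2.56 ± 0.08, adjusted p = 3.54e-06). Gjb1, connexin 32, was at 2.33 and 1.16 FPKM in control and 9.31 and 8.73 FPKM in KD cells untreated and was listed at 0 in all 4 libraries of 24 h (-1.90 ± 0.24, adjusted p = 0.00529). In each of these genes both untreated KD libraries exceeded both untreated controls.

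A KD difference that was higher at 24 h than in untreated cells was measured for Prg4 (2.03 ± 0.10, adjusted p = 5.69e-05), S100g (1.89 ± 0.23, adjusted p = 0.00491) and Anks4b (1.64 ± 0.08, adjusted p = 5.69e-05). Krt14, a basal keratin, was lower in untreated KD cells, at 4.65 and 4.14 FPKM in control and 1.71 and 1.55 FPKM in KD cells, and had 1.28 and 1.39 FPKM in control and 2.84 and 1.99 FPKM in KD cells at 24 h (1.57 ± 0.18, adjusted p = 0.00432). Itgb7, a leukocyte integrin subunit, was lower in untreated KD cells as well, at 28 and 40.8 FPKM in control and 8.58 and 9.37 FPKM in KD cells and was under 1 FPKM in every library of 24 h (1.66 ± 0.21, adjusted p = 0.00604). Against 8 h the higher differences included Hnf4a (0.97 ± 0.12, adjusted p = 0.0194) and Lgals2 (0.77 ± 0.06, adjusted p = 0.00119). Lgals2 was not called in that test after quantile normalization, nor Hnf4a without control replicate 1 or 2.

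**Figure D4:**
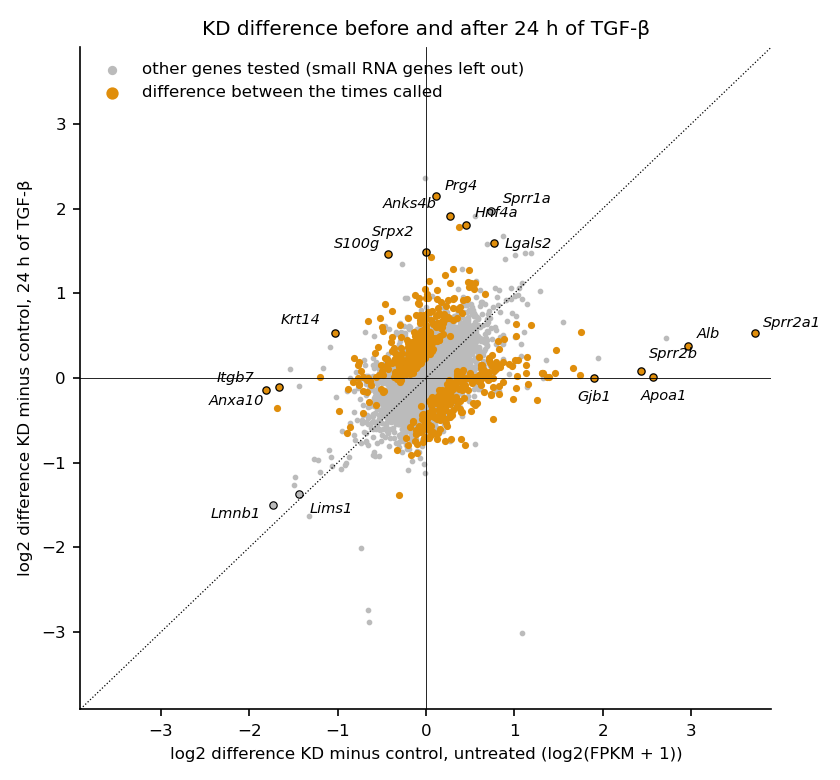
KD minus control difference at 24 h of TGF-β (vertical axis) against that in untreated cells (horizontal axis), both on log2(FPKM + 1), for the tested genes other than small RNAs; orange points are genes whose difference changed between the times by its own test, and open rings mark named genes. Lmnb1 and Lims1 lie near the dotted line of equal difference, Prg4, Anks4b and Hnf4a above it, and Sprr2a1, Alb and Apoa1 far below it.

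Lamin B1 ChIP peaks of 24 h, from 1 library of NMuMG cells without shRNA, were last placed on the genes. Of the 10473 tested genes placed on mm9, 44.2% had a peak in the gene or the 2500 bp before it. The share was 42.4% of called and 45.0% of other genes. It was 36.7% of the 1789 placed genes higher in KD cells and 50.6% of the 1240 lower ones. With peaks within 500 bp of the start the shares were 31.3% and 43.8%. An ATAC peak within 500 bp of the start, also from 1 library, was found for 82.8% of the higher and 87.9% of the lower genes. Median expression in control cells was 14.2 FPKM in the higher and 12.8 FPKM in the lower genes.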

How the data were processed

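RNA was measured in 12 libraries of NMuMG cells carrying an irrelevant or a lamin B1 shRNA, and in 6 of parental cells. The authors deposited FPKM values per gene, 1 table for each set, with TopHat, Bowtie and Cufflinks named in the processing notes, on mm9, with versions not given in the sources used here. The shRNA table has no header, so its columns were assigned by the order in the table's own title. Peaks of lamin B1 ChIP and ATAC were deposited with a peak score each, from 1 library a time.

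From these values, log2(FPKM + 1) was fitted for all 12 libraries together, using limma 3.58.1 with an intensity trend in empirical Bayes (R 4.3.3), after a filter of at least 1 FPKM in at least 2 libraries that left 11450 of 24247 genes. A gene was called at a Benjamini-Hochberg adjusted p under 0.05. The script was tested on simulated data. Parental genes were fitted alike. Peaks were placed on GENCODE genes of mm9. Promoter windows and motifs came from RefSeq on GRCm38.p6, whose coordinates are not those of mm9.

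Genes were named by rule: Lmnb1 and genes the study measured; the 15 largest rises and falls; up to 4 called members of each of 26 lists; 5 genes in each direction for each difference between times; and 4 parental genes each way. All except the first needed 5 FPKM in the higher group, and the rises and falls also groups that do not overlap. Some genes that the rule picked are not reported here. Other genes named were chosen after their values were seen. The members and lists were chosen with earlier results of these data known. Replicate spread is that of 2 libraries a group. Deviations of same-numbered control and KD libraries correlated with r = -0.135, -0.113 and 0.368 over all genes tested (untreated, 8 h, 24 h), and with 0.219, 0.00486 and -0.0104 without small RNA genes. As not every pair was over 0.1 in either case, they were not paired. Alternatives changed the constant, the filter, the scaling, the libraries fitted and the replicate block, or left out 1 library.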

Additional observations from a re-analysis of the deposited data

Results flagged for a closer look

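Each result here is flagged because the KD difference at 24 h of TGF-β differed from that at an earlier time by a test of the difference itself. Against untreated cells 540 genes differed, and against 8 h 35 genes.

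Against untreated cells, the differences of 24 h that were lower were those of Sprr2a1 (-3.19), Alb (-2.60), Apoa1 (-2.56), Sprr2b (-2.34) and Gjb1 (-1.90). The higher ones were those of Prg4 (2.03), S100g (1.89), Itgb7 (1.66), Anks4b (1.64) and Krt14 (1.57). With a constant of 0.1 FPKM the value of Alb was not called (-1.03, adjusted p = 0.106 by limma). Sprr2a1 and Sprr2b are near-copies, between which reads may have been split.

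Against 8 h, the lower differences were those of Sprr2a1 (-4.10), Sprr2b (-3.22), Alb (-3.07), Sptssb (-1.21) and Ces2e (-1.15). The higher ones were those of Srpx2 (1.39), Anks4b (1.29), Anxa10 (1.07), Hnf4a (0.97) and Lgals2 (0.77). Without control replicate 1 or 2 the adjusted p (limma) was 0.200 and 0.180 for Sptssb, 0.164 and 0.0977 for Anxa10 and 0.109 and 0.0878 for Hnf4a. Without KD replicate 2 it was 0.0847 for Sptssb and 0.0598 for Anxa10. With a constant of 0.1 FPKM it was 0.180 for Srpx2, 0.275 for Anxa10 and 0.130 for Ces2e, with no filter 0.0762 for Sptssb and 0.0667 for Anxa10, and with quantile normalization 0.165 for Lgals2. For Sptssb it was 0.0534 with the filter in 4 libraries and 0.0711 with the replicate block. Anxa10 was lower in KD cells at 8 h (-1.17) and under 1 FPKM in every library of 24 h, with a difference of -0.10 there. All values are on the log2(FPKM + 1) scale.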

How the results depend on the processing

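Fitted on the 4 libraries of 24 h, 710 genes were called (493 higher, 217 lower) and Lmnb1 kept its value of -1.50 past the threshold no longer. On the 8 libraries of untreated cells and 24 h there were 1974 (1240 higher, 734 lower) and 88 for the difference from untreated cells. Leaving out 1 library of 24 h gave 1199 to 4476 genes, 783 to 2433 higher and 416 to 2043 lower. It gave 90 to 2696 for the difference from untreated cells and 19 to 2138 for that from 8 h. At least 2-fold were 61 genes (43 higher, 18 lower), 53 and 18 in these 3 tests. The difference from 8 h gave 23 genes with a constant of 0.1 FPKM, 56 with no filter, 23 with the filter in 4 libraries and 56 with small RNA genes left out, an alternative chosen after seeing the data. With the replicate block, the calls were 3059, 377 and 36, of which 2961 were shared for the first.

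Of parental genes raised at 1.5-fold, 266 were higher and 139 lower, and of those lowered, 310 and 341. Of the 8 h lists, 54 and 35, and 63 and 23. Lamin B1 peaks within 500 bp of the start were at 36.4% of called and 37.6% of all genes, and peaks of at least the median score at 25.4% and 26.3%. Values not called changed sign with 1 library left out: Cdh2 ran from -0.031 without KD replicate 2 to 0.018 without KD replicate 1, Fn1 from -0.28 without KD replicate 2 to 0.90 without KD replicate 1, the change of Lmnb1 from untreated cells from -0.10 to 0.56 in the same order, and Lmna from -0.013 without control replicate 2 to 0.058 without control replicate 1. With quantile normalization Sprr2b was -0.0038, Sptssb -0.014 and Lmna -0.013, and Lmna was -0.0072 with median-of-ratios scaling and -0.0059 with small RNA genes left out. The cause was not tested. Of 125 named genes called, 50 lost the call without at least 1 of the 4 libraries. FPKM without read totals leaves depth unknown.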
